A study of Mus musculus with 620 samples.

Results

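The genes described here are 36 cell cycle and proliferation genes, taken by symbol from the deposited count tables of a bulk RNA-seq study of mouse tissues. All 36 were found in each of the 3 tables, among 24850 genes in the LT table and 40840 genes in each of the YA and ST tables. The list was set by symbol, with earlier results of these data known. The study sequenced poly(A) RNA from 12 tissues of 72 mice, 620 libraries in all, 1 per animal and tissue. Each animal belonged to 1 condition, and the animals are the replicates.

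The LT cohort held 284 libraries from 25 mice in 12 tissues: young controls (LT_Y_ctrl, 8 mice), aged controls (LT_A_ctrl, 9 mice) and aged mice given exenatide (LT_A_Ex, 8 mice). The YA cohort held 128 libraries from 16 mice in 8 tissues, with 8 controls (YA_ctrl) and 8 mice given exenatide (YA_Ex). The ST cohort held 208 libraries from 31 mice in 7 tissues. Its young controls (ST_Y_ctrl) came from 6 mice, 5 per tissue. Its 5 aged groups held 5 mice each: controls (ST_A_ctrl), exenatide (ST_A_Ex), rapamycin (ST_A_rapa), hypothalamic GLP-1R knockdown (ST_A_ctrl_KD) and the knockdown with exenatide (ST_A_Ex_KD). Exenatide is a peptide that activates the GLP-1 receptor, and rapamycin inhibits the kinase mTOR. The cohort codes LT, ST and YA are kept as labelled, and Y and A in the group names are read as young and aged. The labels used here give no strain, sex, age in months, dose, duration or method of the knockdown. Hypothalamus of the ST cohort was not analysed here, so the knockdown itself was not checked.

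Cells that divide copy their DNA in S phase and separate the copies in mitosis. The MCM proteins Mcm2 to Mcm7 form the ring-shaped helicase that opens DNA for replication, Pcna is the sliding clamp that holds the polymerases, and Rrm2, Tyms and Tk1 supply deoxynucleotides. Later in the cycle the kinase Cdk1 with its cyclins Ccna2, Ccnb1 and Ccnb2 drives entry into mitosis, the kinetochore proteins (Ndc80, Nuf2, Cenpe, Cenpf) join chromosomes to the spindle, motors such as Kif11 and Kif23 shape the spindle and the cleavage furrow, and Top2a untangles the DNA. Mki67 coats mitotic chromosomes and is the most used marker of cycling cells. In adult mice, colon crypts, spleen and bone marrow hold many dividing cells, whereas neurons, heart muscle cells and skeletal muscle fibres do not divide. The members were read in 6 role groups. The 26 members of 4 of these groups are called mitotic here (mitotic cyclins, kinases and APC/C; kinetochore and checkpoint; spindle and cytokinesis; chromosome structure). The other 10 act in replication (helicase and clamp, 7 members) or nucleotide supply (3 members). Esco2, a cohesin acetyltransferase, is counted with the 26.

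The genes of these roles carry different promoter elements, which are shown because several results below separate mitotic from replication members. Mitotic genes are known for CHR elements, which are read by MuvB complexes, and for CCAAT boxes bound by NF-Y, and replication genes for E2F sites. RefSeq start-site windows of 300 bases (build GRCm38.p6, not the GRCm39 build of the count tables) were matched by symbol for 30 of 36 members, in 32 windows. Letters searched on both strands were TTTGAA and TTCGAA for CHR, CCAAT for the CCAAT box, and TTTGGCGC, TTTCGCGC, TTTCCCGC and TTTGCCGC for E2F. A match on one strand can overlap a match on the other. CHR letters were in 77.3% of the 22 windows of mitotic members, in 20% of the 10 windows of replication and nucleotide members and in 19.2% of all 32851 windows of the table. E2F letters were in 4.55%, 40% and 2.26% of these windows, and CCAAT letters in 81.8%, 80% and 37.4%. The 250 bases before the start site follow for the mitotic members Top2a, Mki67 and Cdk1 and the replication members Mcm5, Mcm7 and Mcm2, which recur below. They are 5′ to 3′ on the gene's own strand, and capitals mark matches to the searched letters on either strand.
Top2a (chr11:99024190-99024439, minus strand): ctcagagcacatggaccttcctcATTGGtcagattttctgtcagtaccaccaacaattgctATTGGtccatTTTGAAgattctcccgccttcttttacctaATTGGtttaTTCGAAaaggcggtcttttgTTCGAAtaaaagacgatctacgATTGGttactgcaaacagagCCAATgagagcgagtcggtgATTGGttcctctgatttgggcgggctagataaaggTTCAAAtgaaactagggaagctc
Mki67 (chr7:135716380-135716629, minus strand): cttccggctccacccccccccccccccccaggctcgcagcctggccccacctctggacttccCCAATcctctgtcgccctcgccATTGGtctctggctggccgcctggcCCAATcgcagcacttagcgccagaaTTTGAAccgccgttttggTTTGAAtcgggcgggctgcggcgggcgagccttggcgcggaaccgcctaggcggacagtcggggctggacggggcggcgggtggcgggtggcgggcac
Cdk1 (chr10:69352913-69353162, minus strand): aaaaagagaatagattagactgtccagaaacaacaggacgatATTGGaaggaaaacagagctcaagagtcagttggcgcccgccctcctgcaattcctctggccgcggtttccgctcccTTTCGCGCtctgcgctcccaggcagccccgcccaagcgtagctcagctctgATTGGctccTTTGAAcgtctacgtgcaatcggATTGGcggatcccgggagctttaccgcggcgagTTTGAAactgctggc
Mcm5 (chr8:75109259-75109508, plus strand): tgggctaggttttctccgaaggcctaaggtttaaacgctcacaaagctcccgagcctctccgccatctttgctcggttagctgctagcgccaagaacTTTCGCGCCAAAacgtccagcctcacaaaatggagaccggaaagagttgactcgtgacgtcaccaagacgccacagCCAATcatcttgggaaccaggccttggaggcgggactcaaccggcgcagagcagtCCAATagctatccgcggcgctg
Mcm7 (chr5:138171884-138172133, minus strand): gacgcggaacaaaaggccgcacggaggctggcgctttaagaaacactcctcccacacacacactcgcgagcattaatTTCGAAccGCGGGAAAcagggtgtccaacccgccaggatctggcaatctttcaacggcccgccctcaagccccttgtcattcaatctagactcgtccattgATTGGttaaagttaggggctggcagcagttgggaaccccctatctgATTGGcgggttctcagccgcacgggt
Mcm2 (chr6:88898781-88899030, minus strand): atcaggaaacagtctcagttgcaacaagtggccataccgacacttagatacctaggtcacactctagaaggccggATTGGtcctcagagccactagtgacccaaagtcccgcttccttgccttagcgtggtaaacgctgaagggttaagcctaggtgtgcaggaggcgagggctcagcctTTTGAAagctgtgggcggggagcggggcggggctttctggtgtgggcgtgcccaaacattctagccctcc
The Top2a and Mki67 stretches hold CHR and CCAAT letters and none of the E2F letters, and that of Mcm5 holds E2F and CCAAT letters and no CHR. The others do not split by role: Cdk1 and the Mcm7 stretch shown hold all 3 kinds, and Mcm2 holds CHR and CCAAT letters and no E2F. Mcm7 has another window, which holds CCAAT letters only. A match describes the sequence only.

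Total counts per library ran from 14.6 to 56.2 M (median 25.6 M). Levels are given as CPM (counts divided by the library's scaled total, in M), scaled by the TMM method within a tissue, and the module mean of a library is the mean log2 CPM over the 36 members. Defining markers, such as Alb for liver, Myh6 for heart and Sftpc for lung, had their highest median in the labelled tissue, with exceptions. Ptprc, the pan-leukocyte marker, was highest in YA in adipose tissue rather than white blood cells (318 to 1029 CPM in the latter), and Snap25, of all neurons, was higher in frontal cortex than in hippocampus. A few libraries stood apart. In LT colon, young animals A52 and A53 had almost no Car1 (0.0469 and 0.09 CPM), the carbonic anhydrase of absorptive colon cells, so colon results are also given without them. In ST white blood cells, 7 erythroid markers summed to 700945 CPM in young animal A44, against a median of 53620 over that tissue's libraries. The spleens of B28 (exenatide) and A56 (young control) had far higher module means than the rest of their groups. A gene passed a test at an adjusted p under 0.05 (edgeR, Benjamini-Hochberg over all genes tested in the tissue). In bulk tissue, fewer dividing cells and less RNA per dividing cell cannot be told apart.

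The level of these genes depended on the tissue far more than on age or drug. In LT young controls, the module mean on the log2 CPM scale was 5.26 ± 0.78 in spleen (SD, n = 8) and 5.02 ± 0.24 in colon (n = 6), 2.86 ± 0.59 in lung, 2.72 ± 0.58 in adipose tissue and 2.30 ± 0.34 in white blood cells (n = 5). It was 1.45 ± 0.22 in kidney, 1.07 ± 0.40 in heart and 0.94 ± 0.26 in frontal cortex. The lowest were liver at 0.67 ± 0.49, hippocampus at 0.67 ± 0.13, hypothalamus at 0.55 ± 0.18 and skeletal muscle at -0.47 ± 0.34. Neighbours in this order overlapped within 1 SD, apart from the steps from colon to lung, from white blood cells to kidney and from hypothalamus to muscle. Because TMM scaling was done within a tissue, the order between tissues is a description. Mki67 ran from 130 to 193 CPM in young colon (median 148) and from 0 to 1.57 CPM in young muscle (median 0.395). Top2a had a median of 132 CPM in colon, 3.55 in frontal cortex and 0.528 in muscle. Pcna spanned a smaller range, from a median of 135 CPM in spleen and 99.6 in colon to 27.3 in hypothalamus and 19.3 in muscle. Mcm5 had a median of 62.9 CPM in spleen, 38.9 in colon and 0.916 in muscle.

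**Figure D1:**
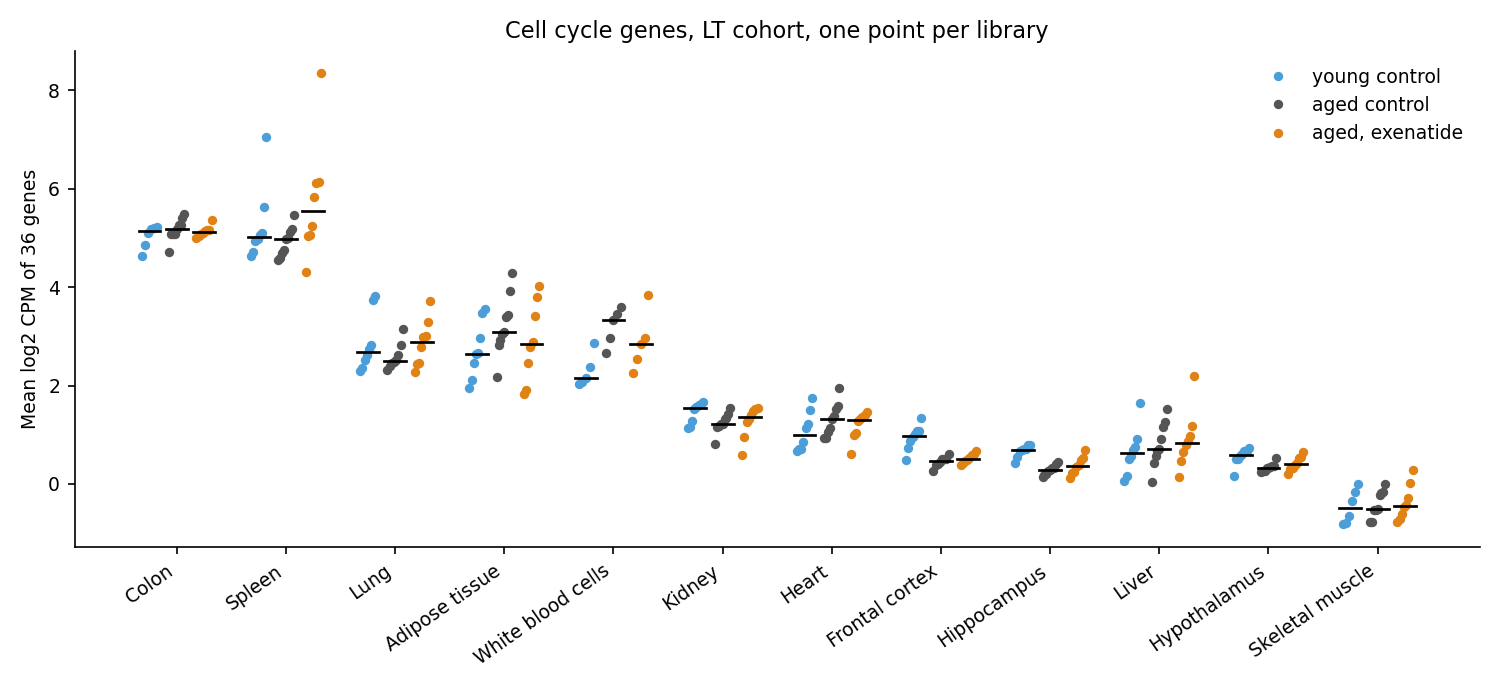
Module mean (mean log2 CPM of the 36 genes) of each LT library, with tissues on the x axis, 1 point per animal, coloured by group, and a black line at each group's median. Colon and spleen lie highest and muscle lowest, and exenatide spleen B28 at 8.34 and young spleen A56 at 7.04 lie above their groups.

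The members varied together across libraries in some tissues and not in others. After removing group and batch means, the median correlation of a member with the mean of the rest was 0.98 in LT spleen (25 libraries), 0.94 in LT adipose tissue, 0.89 in LT lung, 0.80 in LT liver and 0.70 in LT colon. These are descriptions over libraries that share a depth and a scaling factor. The spleen value includes B28 and A56, whose module means lay far above the rest of their groups. In LT white blood cells the mitotic members had a median of 0.88 and the helicase and clamp members 0.49. In the brain tissues the medians lay between -0.15 and 0.27. Mcm7 followed the rest least in adipose tissue of all 3 cohorts (0.49 in LT, 0.43 in YA and 0.53 in ST).

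Not every member could be tested in every tissue. All 36 passed the filter on low counts in adipose tissue, white blood cells and colon of each cohort, in kidney, lung and spleen, and in LT and ST heart. In LT, 35 passed in liver, 32 in frontal cortex, 28 in hippocampus and in hypothalamus and 22 in muscle. The untested members had too few counts there, so no test of them is given in those tissues. They still enter the module mean, which is taken over all 36 members.

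With age, the LT tissues went in opposite directions. Of 397 tests of members over 12 tissues, 28 gave a higher and 14 a lower level in aged controls (10.6%, against 13.6% of all genes tested). White blood cells held 17 of the higher calls and adipose tissue 7, and frontal cortex held 8 of the lower ones. No member passed in heart, kidney, liver or spleen by edgeR (DESeq2 called 1 lower, in kidney), where 3, 9, 0 and 0 were at an unadjusted p under 0.05, and 17.9%, 7.45%, 4.5% and 11.2% of all genes passed.

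**Figure D2:**
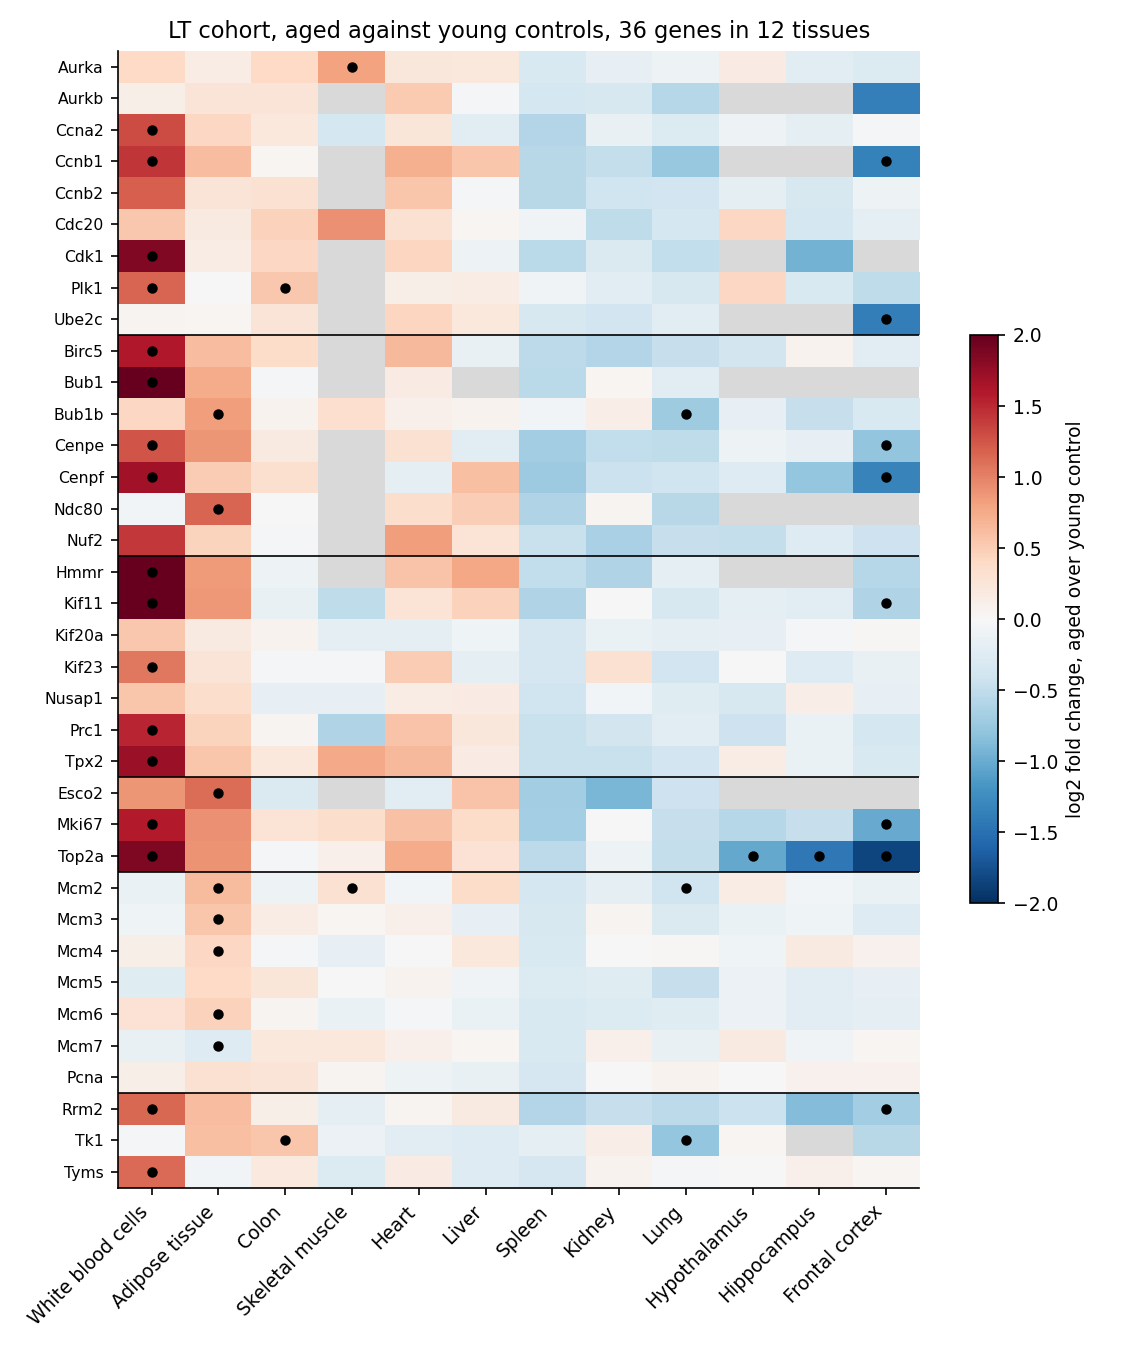
Log2 fold change of aged over young LT controls for the 36 genes (y axis, lines between role groups) in 12 tissues (x axis), with colour limits at 2 on either side, a dot where the adjusted p was under 0.05 and grey where a gene was not tested. White blood cells show 17 dots on higher values and frontal cortex 8 on lower values.

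In white blood cells of the LT cohort, mitotic genes were higher in aged than in young controls and the replication helicase was not. Of 36 members, 17 rose and 0 fell (47.2%, against 27.7% of all genes tested in this tissue), and 15 of the 17 were among the 26 mitotic members, whose median log2 fold change was 1.28. None of the 7 helicase and clamp members passed, with a median of -0.08. The median over all genes was -0.01.

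Mki67 was at 14.1, 17.5, 17.8, 19.1 and 28.3 CPM in the 5 young and at 34.4, 44.8, 55.5, 77.7 and 78.1 CPM in the 5 aged controls. The groups did not overlap, and the log2 fold change was 1.59 ± 0.33 (SE, adjusted p = 0.00585). Top2a had 6.25, 6.95, 6.98, 9.65 and 14.8 CPM in young and 13.1, 26.5, 37.5, 41.6 and 43.2 CPM in aged controls, where only the highest young animal reached into the aged range (1.86 ± 0.45, adjusted p = 0.00903). Kif23, the motor of the cleavage furrow, had 12.2, 13.1, 16.9, 21.1 and 21.2 CPM in young and 20.7, 30.1, 39, 40.1 and 44.8 CPM in aged controls (1.05 ± 0.20, adjusted p = 0.00447). It is the member that followed the rest of the module least in this tissue (correlation 0.02). Cdk1, the mitotic kinase, went from 0.329, 0.711, 0.743, 1 and 2.01 CPM to 1.65, 2.75, 3.52, 4.46 and 4.84 CPM (1.86 ± 0.50, adjusted p = 0.0141). Birc5, the survivin subunit of the chromosomal passenger complex, rose by 1.60 ± 0.44 and Tyms, which makes thymidylate, by 1.14 ± 0.32 (adjusted p = 0.0158 and 0.0171). Both are low genes in blood, with at most 2.71 and 1.7 CPM in the young animals.

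The helicase gave a different picture in the same libraries. Mcm5 had 22.3, 25.5, 30.3, 32.1 and 36.3 CPM in young and 21.2, 21.8, 23.4, 28.3 and 28.4 CPM in aged controls, and Pcna 51.1 to 58 and 51.1 to 67.9 CPM, with overlapping groups in both. Of 124 other pathway genes tested, 40 rose and 7 fell, 30 of the 40 among 69 further mitosis genes. Those with the smallest adjusted p were Cdk2, a kinase of S phase entry, which fell by 0.47 ± 0.09, and Ckap2l, a spindle protein, and Dut, a dUTPase, which rose by 1.74 ± 0.35 and 1.34 ± 0.27. Other blood cells differed too. B cell markers summed to 2572 to 3508 CPM in young and 1616 to 2469 CPM in aged controls (5 of 7 fell). Mature neutrophil markers went from 527 to 2341 up to 1765 to 5136 CPM (3 of 4 rose), platelet markers from 1661 to 4426 up to 4341 to 14082 CPM (4 of 4 rose), and T and NK cell markers from 480 to 595 up to 600 to 1293 CPM (2 of 7 rose). Markers of neutrophil precursors summed to at most 3.13 CPM, with Ms4a3 at 0 in every aged library. The part of these cells in the result was not tested. Without aged animal B34, 10 members rose, and without young animal A56, 11.

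**Figure D3:**
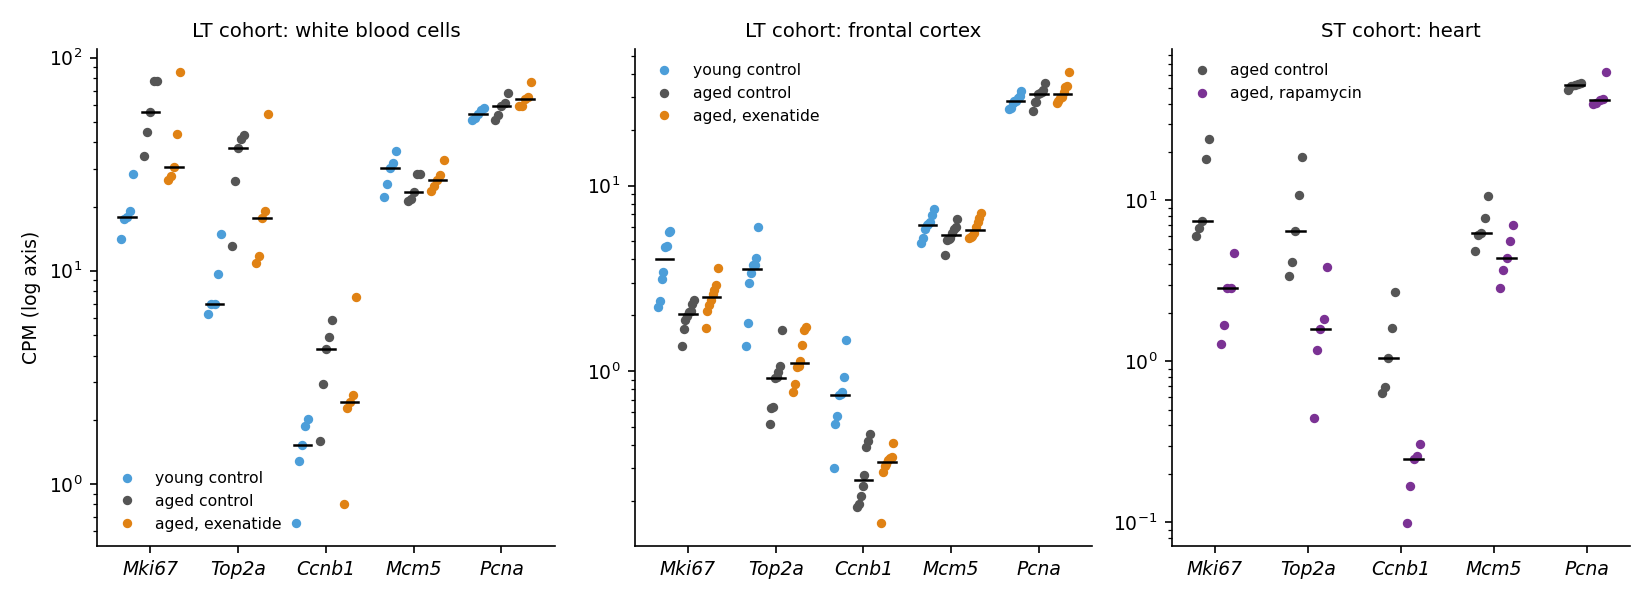
CPM (log axis) of Mki67, Top2a, Ccnb1, Mcm5 and Pcna in each library of LT white blood cells, LT frontal cortex and ST heart, 1 point per animal, coloured by group. Mki67 and Top2a are higher in aged than in young blood, lower in aged than in young cortex and lower after rapamycin in heart, while Mcm5 and Pcna overlap between groups in blood.

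In LT frontal cortex, 8 of 32 members were lower in aged controls and none was higher (25%, against 5.74% of all genes). Top2a had a lowest, median and highest level of 1.36, 3.55 and 5.98 CPM in 8 young and 0.52, 0.92 and 1.67 CPM in 8 aged controls. The ranges overlapped only at their ends, and the log2 fold change was -1.83 ± 0.26 (adjusted p = 0.000131). Mki67 went from 2.22, 4.05 and 5.69 to 1.37, 2.03 and 2.41 CPM (-1.005 ± 0.19, adjusted p = 0.00186). Cenpf, a kinetochore protein, went from 0.453, 1.38 and 2.35 to 0.297, 0.536 and 0.766 CPM (-1.34 ± 0.26, adjusted p = 0.00276). Ccnb1, cyclin B1, went from 0.302, 0.748 and 1.47 to 0.186, 0.258 and 0.457 CPM (-1.35 ± 0.28, adjusted p = 0.00468). Its counts may be shared with a pseudogene, which the ST and YA tables list. Kif11, the spindle motor, fell by 0.60 ± 0.16 and Rrm2, a ribonucleotide reductase subunit, by 0.70 ± 0.19 (adjusted p = 0.0265 and 0.030), and Ube2c and Cenpe also passed. None of the 7 helicase and clamp members passed (median log2 fold change -0.13).

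The exenatide group of frontal cortex lay near the aged controls. Its Top2a test against them did not pass, and no member did in that comparison by edgeR or DESeq2, with 1 member at an unadjusted p under 0.05. By sequencing batch, 8 members fell in batch 1 (5 animals per group), where Top2a fell by 2.32 (adjusted p = 2.42e-05). In batch 3 (3 per group) no member passed, and the values had the same direction, -0.93 for Top2a (adjusted p = 0.377) and -0.63 for Mki67. Of 112 other pathway genes, 3 rose and 13 fell, among them Pbk, a mitotic kinase (-1.59 ± 0.28), and Ccnd2, cyclin D2 (-0.39 ± 0.07). Anln, an actin-binding protein of cytokinesis, rose by 0.80 ± 0.10. Neuroblast markers summed to 73.8 to 114 CPM in young and 58.3 to 92 CPM in aged controls (2 of 6 fell), oligodendrocyte precursor markers to 320 to 410 and 311 to 416 CPM (1 of 7 fell) and endothelial markers to 71.6 to 93 and 67.2 to 85.8 CPM (2 of 5 fell). Their part in the result was not tested. Between 5 and 9 members fell when 1 animal was left out, the 5 being without young A56, aged B24 or aged B34.

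Top2a was the 1 member that passed in the other LT brain tissues. In hippocampus it went from 0.81, 1.37 and 2.51 CPM (lowest, median, highest) to 0.244, 0.605 and 0.934 CPM (-1.43 ± 0.31, adjusted p = 0.0326), beside 0.403% of all genes. In hypothalamus it went from 0.349, 0.875 and 1.26 to 0.154, 0.43 and 0.702 CPM (-1.02 ± 0.28, adjusted p = 0.0318), beside 7.09% of all genes. Both calls were lost in batch 3 alone and in many fits that left out 1 animal (11 and 8 of 17), with fold changes between -1.56 and -1.28 in hippocampus and between -1.15 and -0.91 in hypothalamus.

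LT adipose tissue had 7 members higher and 1 lower in aged controls (22.2%), under the 50.8% of all genes that passed there. Bub1b, a spindle checkpoint kinase, went from 3.85, 7.35 and 9.99 CPM (lowest, median, highest) to 6.06, 13.1 and 27.5 CPM (0.83 ± 0.28, adjusted p = 0.0182). Esco2, which acetylates cohesin, rose by 1.12 ± 0.40 (adjusted p = 0.0222), and Ndc80, Mcm2, Mcm3, Mcm4 and Mcm6 also rose. Mcm7 moved the other way, from 28.6, 34.1 and 39.2 to 25.1, 27.8 and 38.6 CPM (-0.26 ± 0.09, adjusted p = 0.018). Mki67 ran from 9.34 to 52.3 CPM in young and from 10.5 to 107 CPM in aged controls and did not pass (0.91 ± 0.45, adjusted p = 0.0974), and neither did Top2a (0.90 ± 0.44, adjusted p = 0.0909). Immune cell markers moved far more. B cell markers summed to 20.5 to 400 CPM in young and 1361 to 3363 CPM in aged controls (7 of 7 rose), macrophage markers to 462 to 1433 and 2031 to 4026 CPM (6 of 6 rose), and T and NK cell markers to 10.9 to 97.7 and 76.1 to 328 CPM (6 of 7 rose). Adipocyte markers went from 5457 to 13013 down to 1586 to 6924 CPM (4 of 5 fell). Their part in the result was not tested. No member rose in batch 3 alone and 1 rose in batch 2 alone. Leaving out 1 animal gave 3 (without aged B41) to 12 (without young A52) higher members, and 4 without young A54. Of 125 other pathway genes 29 rose and 9 fell, led by Rbl2, an Rb-like repressor of E2F genes (0.50 ± 0.09), Cdc7, an origin-firing kinase (0.80 ± 0.16), and Ncapg2, a condensin subunit (0.95 ± 0.21).

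The other LT tissues gave single members. In muscle, Mcm2 went from 8.5, 9.26 and 9.77 CPM in 6 young (lowest, median, highest) to 10.3, 11.1 and 12.2 CPM in 9 aged controls with no overlap (0.30 ± 0.08, adjusted p = 0.0152). Aurka, a spindle pole kinase, rose there by 0.80 ± 0.25 (adjusted p = 0.0398), where 11.7% of all genes passed, a call lost in 9 of 15 fits without 1 animal. In lung, Bub1b, Mcm2 and Tk1 fell by 0.72 ± 0.19, 0.40 ± 0.11 and 0.78 ± 0.24 (adjusted p = 0.0198, 0.0353 and 0.0491), where 6.43% of all genes passed. The median lung member had -0.38 and 34 of 36 were negative. Young lungs A56 and A58 had module means of 3.82 and 3.73, against a young median of 2.68 and 2.32 to 3.14 in aged controls. Lung members varied together, so their shared sign is not separate evidence for each member. None of the 3 calls held in batch 3 alone. Those of Bub1b, Mcm2 and Tk1 were lost in 1, 8 and 12 of 16 fits without 1 animal. In colon, Plk1, the polo-like kinase of mitosis, went from 19.5, 25.6 and 30.3 to 28, 35.7 and 62.6 CPM (0.53 ± 0.16, adjusted p = 0.0311), and Tk1, thymidine kinase, from 13.2, 20.8 and 26.8 to 22.6, 28 and 37.9 CPM (0.55 ± 0.17, adjusted p = 0.0306), where 14.4% of all genes passed. Without A52 and A53 the values were 0.41 (adjusted p = 0.152) and 0.68 (adjusted p = 0.0473), neither held within either batch, and the calls were lost in 5 and 6 of 15 fits without 1 animal. Goblet cell markers in colon summed to 8907 to 80944 CPM in young and 35719 to 94658 CPM in aged controls, and crypt stem cell markers to 87 to 210 and 68.3 to 123 CPM. Their part in the result was not tested. In LT heart no member passed, and of the other pathway genes 1 rose and 9 fell, led by Gins1, Gins4 and the clamp loader subunit Rfc4 (-0.71 ± 0.14, -0.30 ± 0.07 and -0.36 ± 0.10). Gins1 and Gins4 are subunits of the replication fork complex GINS.

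Exenatide in aged LT mice, compared with the same aged controls as the age comparison, gave 0 higher and 4 lower calls in 397 tests, against 4.92% of all genes. DESeq2 gave 10 calls, and 68 tests were at an unadjusted p under 0.05. The spleen carried 35 of those 68 and none of the calls.

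In the spleen, every one of the 36 members had a positive log2 fold change with exenatide, with a median of 1.29, yet none passed by edgeR or DESeq2 (smallest adjusted p = 0.251), where 0.00588% of all genes passed. Mki67 was at 91, 215, 248, 266, 520, 676, 854 and 4478 CPM in the 8 exenatide spleens, from 91.6 to 285 CPM in the 9 aged controls (median 181), and from 152 to 1495 CPM in the 8 young (median 192). The highest value belonged to B28. Top2a ran from 65.1 to 1366 CPM with exenatide and from 66.9 to 166 CPM in aged controls, and Mcm5 from 51.7 to 393 and from 47.3 to 86.1 CPM. Without B28 the median was 0.57 and 1 member was at an unadjusted p under 0.05. Batch 2 alone, which holds B28, gave 32 such members and a median of 1.88, and batch 3 alone 5 members and 0.63. Marker sums of other dividing lineages overlapped between the groups but had a higher maximum with exenatide. Neutrophil precursor markers summed to 13.7 to 75.4 CPM in aged controls and 26.2 to 1696 CPM with exenatide, and erythroid markers to 3948 to 12074 and 2172 to 31661 CPM. None of these markers passed and their part in the result was not tested.

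**Figure D4:**
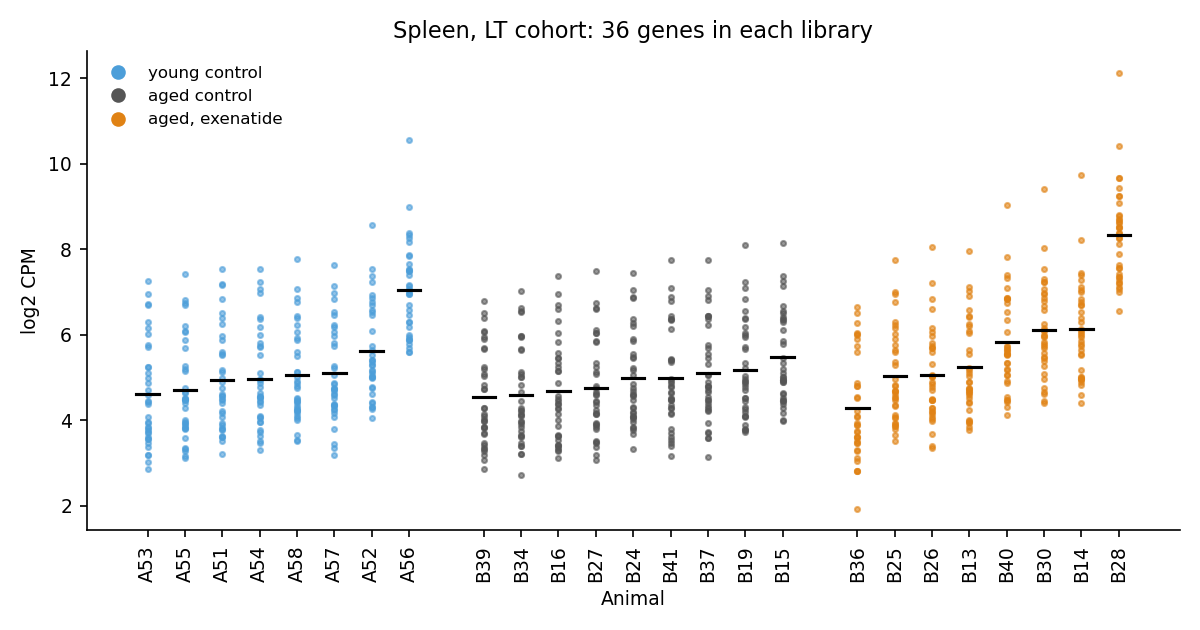
Log2 CPM (y axis) of the 36 genes in each LT spleen library (x axis, by animal and group), 1 point per gene, with a bar at the module mean. All genes of B28 (module mean 8.34, next 6.13) and of A56 (7.04, next 5.63) are shifted up together.

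In LT colon with exenatide, 3 helicase members, Mcm7, Mcm3 and Mcm5, fell and no member rose (8.33% of 36 members, under the 12.1% of all genes), and 12 members were at an unadjusted p under 0.05. Mcm7 had a lowest, median and highest level of 50.6, 60.3 and 79.4 CPM in 9 aged controls and 37.2, 44.1 and 65.2 CPM in 8 treated animals, with overlap (-0.44 ± 0.11, adjusted p = 0.014). Mcm3 went from 29.5, 45 and 57.7 to 24.7, 32.2 and 48.6 CPM (-0.43 ± 0.13, adjusted p = 0.0339), and Mcm5 from 36.7, 46 and 65.7 to 28.1, 33.7 and 52.5 CPM (-0.43 ± 0.14, adjusted p = 0.039). All 7 helicase and clamp members had negative values (median -0.43), while the median of the mitotic members was 0.07. Mki67 was at 143, 180 and 220 CPM in aged controls and 163, 181 and 257 CPM with exenatide. Among 33 further origin, fork and nucleotide genes, 8 fell and none rose, and among 69 mitosis genes 5 rose and 1 fell. Lig1, the ligase of replication, fell by 0.46 ± 0.10, and Lin54, a MuvB subunit, and Knl1, a kinetochore scaffold, rose by 0.38 ± 0.08 and 0.55 ± 0.13. The 3 calls held without A52 and A53 (adjusted p = 0.00867, 0.0233 and 0.0266 for Mcm7, Mcm3 and Mcm5) but not within either batch. There the values were -0.58, -0.69 and -0.76 in batch 3 and -0.33, -0.25 and -0.18 in batch 2. Those of Mcm3 and Mcm5 were lost in 11 of 17 fits that left out 1 animal, and that of Mcm7 in none.

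**Figure D5:**
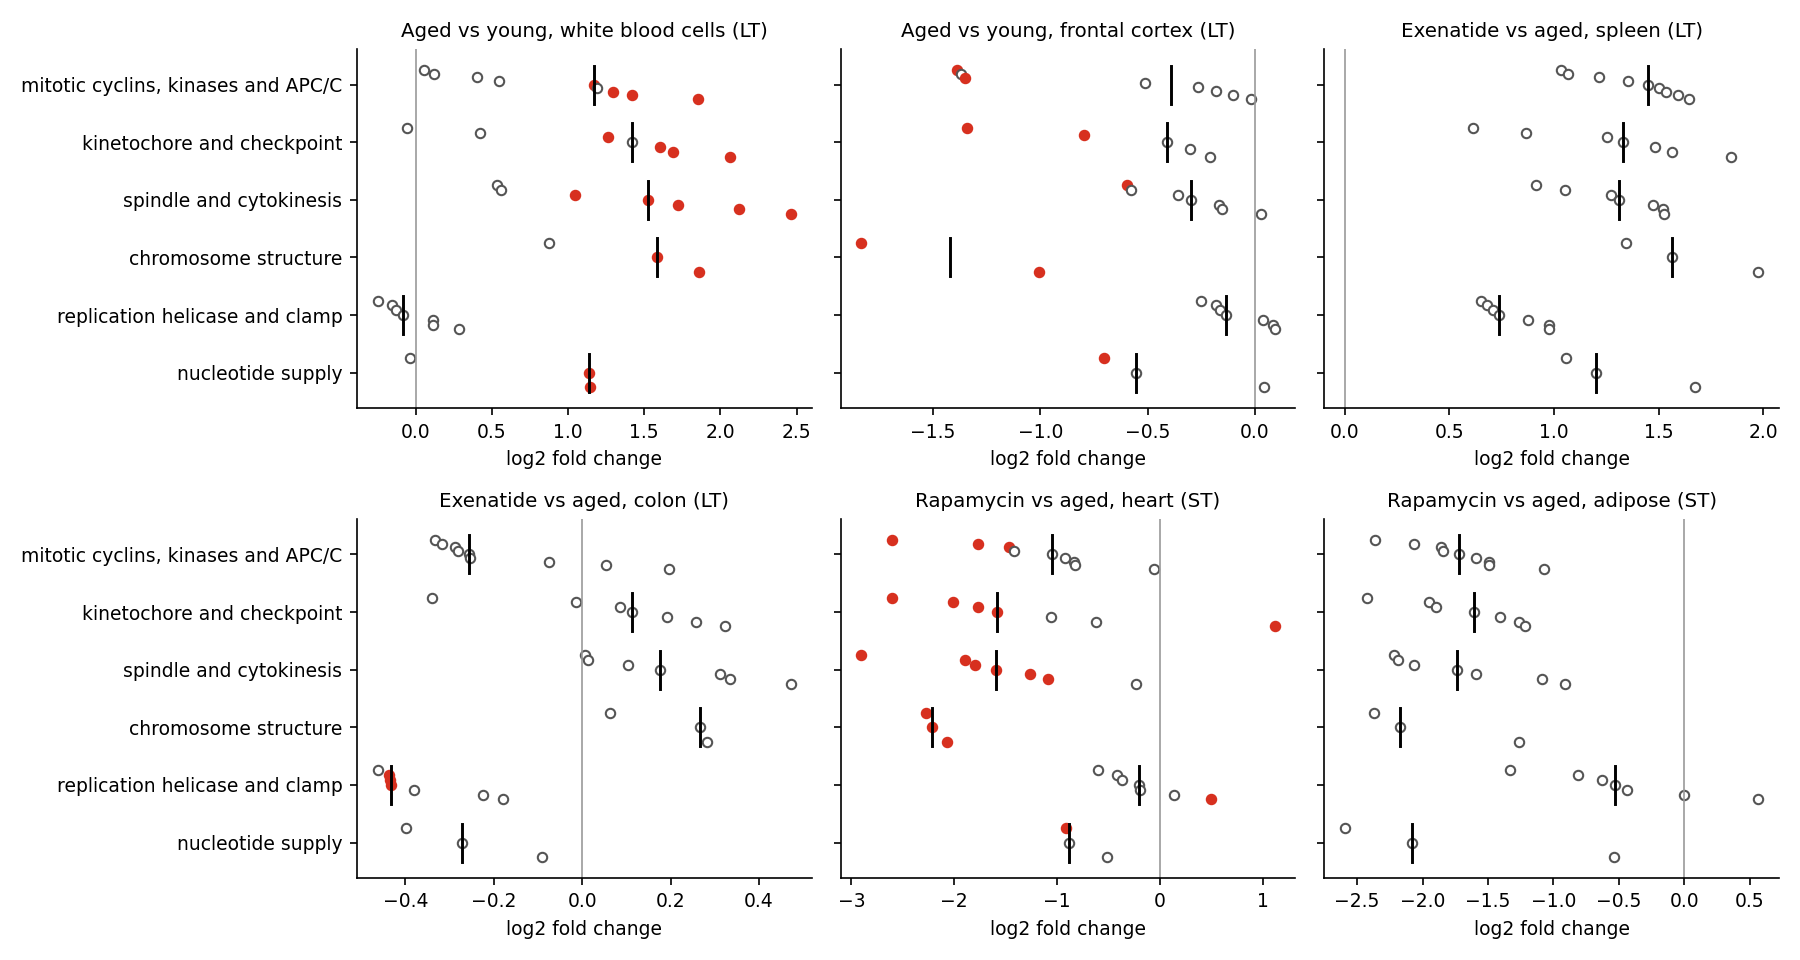
Log2 fold change of each member (x axis) by role group (y axis) in 6 comparisons, with red filled points for members that passed and a line at each group's median. Mitotic groups lie right of 0 and the helicase group at 0 in LT blood with age, while the helicase group lies left of 0 in LT colon with exenatide.

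In LT heart, exenatide lowered Cdc20, the activator of the anaphase-promoting complex (-0.73 ± 0.21, adjusted p = 0.0491, against 4.01% of all genes). It had 1.22, 2.21 and 3.41 CPM (lowest, median, highest) in aged controls and 1.05, 1.22 and 1.84 CPM with exenatide. The call was lost in 5 of 7 other settings and in 14 of 17 fits without 1 animal. In LT adipose tissue no member passed by edgeR or DESeq2 (18.8% of all genes did, and 0 members were at an unadjusted p under 0.05). Of the other pathway genes there, 4 rose and 11 fell, led by Pola1, a polymerase alpha subunit (-0.54 ± 0.13), Lin54 (-0.38 ± 0.10) and Ccne2, cyclin E2 (-0.66 ± 0.17). In lung, 34 of 36 members had positive values (median 0.34) with none passing by either tool, 6 at an unadjusted p under 0.05 and 0.609% of all genes called. In liver 25 of 35 members had positive values (median 0.23), none passed by edgeR, 2 were lower by DESeq2 and 4 were at an unadjusted p under 0.05, where 1.04% of all genes passed. In hypothalamus none of 28 passed by either tool, with 3 at an unadjusted p under 0.05 and 6.2% of all genes called.

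In young adult mice of the YA cohort, no member was called with exenatide. None of 239 tests in 8 tissues passed by edgeR or DESeq2, 13 were at an unadjusted p under 0.05, and 0.631% of all genes passed. White blood cells held 9 of the 13, with a median log2 fold change of -0.21. The module mean there was 2.44 ± 0.64 in controls and 2.05 ± 0.68 with exenatide (SD, n = 8 each). In adipose tissue 35 of 36 members had negative values, and the module means were 3.59 ± 0.75 and 3.21 ± 0.94, which overlap. In colon, whose epithelium divides throughout life, no member was at an unadjusted p under 0.05 (median 0.09, with 4.61% of all genes called).

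The ST cohort repeated the age comparison in 7 tissues with 5 animals per group, and all its comparisons with aged controls share those animals. In 225 tests, 0 members rose and 5 fell with age (13.6% of all genes passed). Of the 5, 4 were in brain. Top2a in ST frontal cortex had 2.14, 3.25, 3.3, 3.77 and 4.06 CPM in young and 1.14, 1.85, 1.85, 2 and 2.22 CPM in aged controls, overlapping at 1 animal per group (-0.87 ± 0.25, adjusted p = 0.0333, where 5.56% of all genes passed). Hmmr, a spindle-associated receptor of hyaluronan, had 0.956, 1.02, 1.03, 1.36 and 1.95 CPM in young and 0.516, 0.613, 0.653, 0.844 and 0.885 CPM in aged controls with no overlap (-0.84 ± 0.26, adjusted p = 0.0489). These calls were lost in 6 and 8 of 10 fits without 1 animal. In ST hippocampus, Top2a had 0.802, 0.952, 1.25, 1.25 and 1.35 CPM in young and 0.261, 0.388, 0.602, 0.811 and 0.906 CPM in aged controls (-0.91 ± 0.27, adjusted p = 0.0118, where 26% of all genes passed). Mcm5 had 4.25, 4.7, 4.97, 5.1 and 5.7 CPM in young and 3.24, 3.71, 3.87, 4.01 and 4.21 CPM in aged controls with no overlap (-0.38 ± 0.11, adjusted p = 0.0123). Both hippocampal calls held in each of 10 fits without 1 animal. Neuroblast markers of ST hippocampus summed to 60.9 to 76.8 CPM in young and 57.2 to 79.7 CPM in aged controls (1 of 6 rose), and their part in the result was not tested. Top2a was thus lower in aged controls in 3 LT and 2 ST brain tissue comparisons. Within a cohort these tissues came largely from the same mice, so the comparisons are not independent.

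In that tissue 9 of 108 other pathway genes rose and 12 fell. Rbl2 and Rb1, members of the Rb family that hold back S phase, rose by 0.31 ± 0.05 and 0.41 ± 0.08, and Anln by 0.57 ± 0.12.

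In ST white blood cells Mki67 was lower in aged controls, the opposite direction to LT. It had 35.4, 35.4, 50.9, 56.9 and 112 CPM in young and 8.2, 11.4, 19.4, 33.4 and 40.4 CPM in aged controls (-1.36 ± 0.47, adjusted p = 0.0368, where 23.6% of all genes passed). The highest young value came from A44, the library with the very high erythroid markers, and without it the value was -0.995 (adjusted p = 0.124). The call was lost in 6 of 10 such fits. No other member passed, and the difference between cohorts was not tested. Of 124 other pathway genes, 5 rose and 9 fell. Bub3, a checkpoint protein, rose by 0.64 ± 0.14, and Smc4, a condensin subunit, and Pole, the leading-strand polymerase, fell by 0.98 ± 0.21 and 1.29 ± 0.30. In ST adipose tissue all 36 members had positive values with age (median 0.65), none passed by edgeR or DESeq2, 0 were at an unadjusted p under 0.05, and 0% of all genes passed. In ST colon 34 of 36 members had negative values with age (median -0.12), and none passed by either tool or had an unadjusted p under 0.05 (0.0221% of all genes passed). Its module mean was 5.03 ± 0.33 in young and 4.93 ± 0.24 in aged controls (SD, n = 5 each), which overlap.

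Exenatide in aged ST mice gave 2 higher and 1 lower call in 225 tests (8% of all genes passed). In hippocampus Pcna went from 27, 27.8, 29.3, 31.3 and 31.7 CPM in controls to 32.8, 35.4, 36.7, 36.8 and 37.9 CPM with no overlap (0.29 ± 0.08, adjusted p = 0.00546, where 28.6% of all genes passed). Plk1 went from 1.73, 1.81, 1.98, 2.19 and 2.57 to 1.08, 1.27, 1.4, 1.7 and 1.88 CPM (-0.49 ± 0.18, adjusted p = 0.0422). Total counts of these hippocampus libraries were 22.7 to 26.4 M in controls and 30.1 to 56.2 M with exenatide, with no overlap. The part of depth in these calls was not tested. In muscle Mcm7 went from 5.58, 7.6, 7.89, 8.18 and 8.18 to 8.38, 8.82, 9.14, 10.1 and 10.3 CPM with no overlap (0.32 ± 0.10, adjusted p = 0.032, where 18.4% of all genes passed). The Pcna call held in every fit without 1 animal, and those of Plk1 and Mcm7 were lost in 6 and 5 of 10. In the hippocampus 10 of 108 other pathway genes rose and 9 fell, with Rbl2 and Rb1 lower by -0.31 ± 0.05 and -0.40 ± 0.08, and Stmn1, a microtubule-destabilizing protein, higher by 0.33 ± 0.08. In white blood cells 28 of 36 members had positive values with exenatide (median 0.22), none passed by edgeR and 1 did by DESeq2, with 2 at an unadjusted p under 0.05 and 6.66% of all genes called.

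Rapamycin gave the largest number of calls in the ST cohort, 6 higher and 23 lower in 225 tests (12.9%, near the 13.2% of all genes). Of these, 19 were in heart. There, mitotic members were lower after rapamycin and the helicase was not: 2 members rose and 17 fell of 36 (52.8%, against 23.3% of all genes). Of the 26 mitotic members 16 fell and 1 rose (median log2 fold change -1.52), and of the 7 helicase and clamp members none fell and 1 rose (median -0.20). Total counts were 14.6 to 17.5 M in control hearts and 18 to 22.3 M after rapamycin, with no overlap. The part of depth in the result was not tested.

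Ndc80, the kinetochore's microtubule anchor, had 0.643, 1.2, 1.28, 1.68 and 1.97 CPM in control hearts and 0.103, 0.148, 0.205, 0.297 and 0.334 CPM after rapamycin, with no overlap (-2.61 ± 0.48, adjusted p = 0.001). Ccnb1 had 0.639, 0.694, 1.05, 1.62 and 2.71 CPM in controls and 0.0989, 0.167, 0.247, 0.257 and 0.307 CPM after rapamycin (-2.60 ± 0.53, adjusted p = 0.00191). Mki67 had 6, 6.78, 7.45, 18.2 and 24.1 CPM in controls and 1.28, 1.69, 2.87, 2.87 and 4.7 CPM after rapamycin (-2.21 ± 0.54, adjusted p = 0.00589). These 3 genes separated the groups fully. Top2a had 3.38, 4.15, 6.5, 10.8 and 18.6 CPM in controls and 0.445, 1.18, 1.58, 1.84 and 3.86 CPM after rapamycin (-2.27 ± 0.59, adjusted p = 0.0088). Tpx2, a spindle assembly factor that activates Aurka, fell by 1.89 ± 0.46 (adjusted p = 0.006), with 0.993 to 7.4 CPM in controls and 0.41 to 1.24 CPM after rapamycin. Tk1 fell by 0.91 ± 0.33 (adjusted p = 0.0469), a call lost in 7 of 10 fits without 1 animal. Control animals E23 and E32 had the highest Mki67 levels, 18.2 and 24.1 CPM.

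Mcm7 and Cenpf went up in the same hearts. Mcm7 had 12.2, 12.4, 13.7, 13.9 and 16.5 CPM in controls and 17, 17.4, 17.7, 18.2 and 26.7 CPM after rapamycin, with no overlap (0.495 ± 0.13, adjusted p = 0.00907). Cenpf had 20.1, 21.6, 25.6, 29.3 and 43.9 CPM in controls and 33, 35.6, 51.9, 81.3 and 103 CPM after rapamycin, and rose by 1.12 ± 0.29. Cenpf was also the heart member that followed the rest least, with correlations of -0.14, -0.44 and 0.01 in LT, YA and ST. Of 116 other pathway genes, 6 rose and 20 fell, 16 of the 20 among 61 mitosis genes. Racgap1, of the cleavage furrow, and Dlgap5, a spindle protein, fell by 1.47 ± 0.35 and 2.03 ± 0.49, and Rpa2, a single-strand binding subunit, rose by 0.54 ± 0.13.

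Immune markers were lower in the rapamycin hearts as well. Macrophage markers summed to 255 to 659 CPM in controls and 188 to 408 CPM after rapamycin (4 of 6 fell), T and NK cell markers to 3.14 to 19.7 and 2.36 to 3.91 CPM (2 of 7 fell), and mature neutrophil markers to 10 to 29.5 and 3.33 to 8.16 CPM (2 of 4 fell). None of 5 endothelial markers passed, at 603 to 738 and 531 to 847 CPM in sum. The part of these cells in the result was not tested. Fitting only the compared groups gave 8 lower members and 0 higher, and leaving out control E32 or treated E6 gave 8 lower ones.

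In ST adipose tissue rapamycin gave negative values in 35 of 36 members with a median of -1.59, but none passed by edgeR and 2 did by DESeq2, where 0.00566% of all genes passed and 26 members were at an unadjusted p under 0.05. Mki67 had 5.89, 15.1, 16.8, 31.9 and 82.6 CPM in controls and 5.18, 5.21, 5.92, 7.14 and 10.4 CPM after rapamycin. Control E23 was the highest library, and without it the median was -0.85 and 5 members were at an unadjusted p under 0.05. B cell markers summed to 99.1 to 1612 CPM in controls and 17.8 to 140 CPM after rapamycin, and their part in the result was not tested.

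Mcm7 was also higher after rapamycin in frontal cortex and muscle. In frontal cortex it had 8.73, 8.83, 10, 10.7 and 11.2 CPM in controls and 11, 11.8, 12.3, 12.8 and 13.3 CPM after rapamycin (0.31, adjusted p = 0.0198, where 18.2% of all genes passed). In muscle it had 9.72, 9.88, 9.89, 9.91 and 11.3 CPM after rapamycin, above every control (0.44, adjusted p = 0.0107, where 10.2% of all genes passed). Mcm4 rose there as well, from 3.26, 4.19, 4.63, 4.92 and 5.26 to 5.69, 5.94, 5.96, 6.21 and 7.1 CPM (0.47, adjusted p = 0.0376), and Tpx2 fell by 1.13 (adjusted p = 0.0154). Neither the Mcm4 nor the Mcm7 or Tpx2 call of muscle held when only the compared groups were fitted, and the Mcm4 call was lost in 7 of 10 fits without 1 animal. In adipose tissue Mcm7 was at 26.1, 26.4, 26.8, 39.8 and 51.2 CPM in controls and 34.6, 38.4, 39, 47.3 and 93.3 CPM after rapamycin, and did not pass. Kif23 of frontal cortex had 1.27, 1.48, 1.5, 1.78 and 2.04 CPM in controls and 0.838, 0.915, 1.05, 1.06 and 1.15 CPM after rapamycin, with no overlap (-0.69, adjusted p = 0.0171). The Kif23 call was lost without treated animal E6 (-0.629, adjusted p = 0.053), and the Mcm7 call of frontal cortex without treated E22 or control E29 or E30. Among other pathway genes of frontal cortex, 10 rose and 6 fell, with Clspn, a checkpoint mediator (-1.14 ± 0.24), Rb1 (-0.47 ± 0.10) and Ccnd2 (-0.35 ± 0.08) among the 6.

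In ST hippocampus 1 member rose and 3 fell after rapamycin (13.8% of 29, against 27.6% of all genes). Kif11 went from 1.57, 1.7, 1.73, 1.73 and 2.13 to 0.701, 0.805, 1.2, 1.24 and 1.44 CPM with no overlap (-0.71, adjusted p = 0.00413). Plk1 fell by 0.56 and Rrm2 by 0.68 (adjusted p = 0.0239 and 0.0294), and Mcm2 rose by 0.30 (adjusted p = 0.0313). The Kif11 call held in each of 10 fits without 1 animal, and those of Plk1, Rrm2 and Mcm2 were lost in 3, 5 and 5. Mki67 was at 2.2, 2.43, 2.54, 2.61 and 3.05 CPM in controls and 2.54, 2.7, 2.77, 3.05 and 3.69 CPM after rapamycin (0.20, adjusted p = 0.446), and Top2a had -0.64 (adjusted p = 0.106). Macrophage markers, which microglia share, summed to 176 to 294 and 167 to 212 CPM (4 of 6 fell), and their part in the result was not tested. Of 108 other pathway genes 12 rose and 10 fell, with Rbl2, Anln and Ncapg2 lower (-0.31 ± 0.05, -0.59 ± 0.12 and -0.44 ± 0.10). In white blood cells Pcna went from 48.1, 50.9, 51.1, 58.7 and 71 CPM in controls to 32.3, 34.1, 35.7 and 36 CPM in 4 treated animals with no overlap (-0.70 ± 0.20, adjusted p = 0.0234, where 12.8% of all genes passed), a call lost in 5 of 9 fits without 1 animal. There 33 of 36 members had negative values (median -0.71), and DESeq2 called 4 lower. In colon the module mean was 5.13 ± 0.38 after rapamycin (SD, n = 5), overlapping controls, and no member passed by either tool, with 2 at an unadjusted p under 0.05 and 0.392% of all genes called.

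With the hypothalamic knockdown on its own, no member passed by edgeR or DESeq2 in 225 tests. There 3.27% of all genes passed and 17 tests were at an unadjusted p under 0.05. Heart held 10 of the 17, with a median of -0.48. The module mean of heart was 1.68 ± 0.59 in aged controls and 1.23 ± 0.19 with the knockdown (SD, n = 5 each). White blood cells had 3 members at an unadjusted p under 0.05 and a median of -0.15, where 7.97% of all genes passed.

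Exenatide within the knockdown gave 1 higher and 2 lower calls, all in hippocampus (4.94% of all genes over the 7 tissues and 31.3% in hippocampus), and 57 tests were at an unadjusted p under 0.05. Pcna went from 22.1, 25.4, 27.3, 29.9 and 35.5 to 30.9, 34.1, 34.4, 34.6 and 36.3 CPM, with overlap (0.28, adjusted p = 0.0064). Top2a went from 0.667, 0.682, 0.757, 0.83 and 0.896 to 0.244, 0.384, 0.393, 0.489 and 0.626 CPM with no overlap (-0.82, adjusted p = 0.0288). Cenpf went from 0.65, 0.717, 0.792, 0.897 and 1.78 to 0.367, 0.471, 0.481, 0.522 and 0.566 CPM, also with no overlap (-0.98, adjusted p = 0.0171). Without knockdown control E8 the Pcna and Cenpf calls were lost (0.188 and -0.667, adjusted p = 0.0537 and 0.0963), and the Top2a call was lost in 4 of 10 fits without 1 animal. The Pcna call was also lost when only the compared groups were fitted. The groups of this comparison share no animals with those of exenatide without the knockdown, where Pcna also passed and total counts did not overlap. Of 108 other pathway genes 8 rose and 15 fell, with Rb1 lower (-0.56 ± 0.08) and Stmn1 and Cdk4, a kinase of G1, higher (0.53 ± 0.08 and 0.47 ± 0.08).

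Adipose tissue and white blood cells had higher but scattered values with exenatide in the knockdown mice. In adipose tissue Mki67 had 4.91, 12.5, 21.9, 22.2 and 35.1 CPM with the knockdown and 14.5, 20.8, 88.9, 96.1 and 141 CPM with exenatide. The median member had 1.38, none passed by edgeR and 7 did by DESeq2, and 23 were at an unadjusted p under 0.05, where 0.0226% of all genes passed. B cell markers summed to 71.2 to 1216 and 106 to 3193 CPM, and their part in the result was not tested. Without E16 there were 5 members at an unadjusted p under 0.05 and a median of 0.88. Without E12 or without E34, 7 members passed. In white blood cells Mki67 had 15.7, 17.3, 27.4, 30.6 and 31.5 CPM with the knockdown and 25.1, 39.9, 75.8, 111 and 163 CPM with exenatide. The median was 1.42 for mitotic and -0.19 for helicase and clamp members, none passed by edgeR and 6 did by DESeq2, and 20 were at an unadjusted p under 0.05, where 0% of all genes passed. Without E15 there were 7 such members and the median over all members was 0.80. The contrast of exenatide's effect in knockdown mice with its effect in the other aged mice was called for no member by edgeR and for 1 by DESeq2, with 14 of 225 tests at an unadjusted p under 0.05 and 2.41% of all genes called.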

How the data were processed

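Per the labels' protocols, RNA from tissue stored in RNAlater was extracted (TRIzol or RNAqueous) and poly(A) libraries were prepared with NEBNext Ultra II, a kit that does not mark strand. The build was GRCm39 per the submitters' processing notes and reads were looked at with FastQC 0.11.9. Which aligner, counter and annotation release were used is not given in the sources used here. Of the tables, the authors deposited LT as whole-number counts per gene and YA and ST as estimated counts, where 7.21% and 7.37% of non-zero values were not whole and were rounded here.

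Groups, tissues and animals were read from the titles and batches from the descriptions. Titles and descriptions name 2 LT exenatide livers (B13 and B14) the other way round, and columns follow the descriptions. LT tissues came from batch 1 or 2 and batch 3, apart from white blood cells (batch 1) and liver (batch 3). YA came from batch 4 (colon from batch 6) and ST from batch 5.

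Each tissue was fitted by edgeR 4.0.16 (R 4.3.3) over all groups of its cohort, with filterByExpr by group, TMM and a robust quasi-likelihood F test. LT tissues from 2 batches had a batch term. The Benjamini-Hochberg adjustment ran within tissue and comparison, and calls are under 0.05. Log2 CPM used a prior count of 2. Alternatives were DESeq2 1.42.0 size factors, its Wald test without independent filtering, no low-count filter, only the compared groups, no batch term, batch sets alone and each animal left out. On simulated counts the steps recovered 65% of 2-fold and 93% of 4-fold changes for LT white blood cells with age (14725 genes). The shares were 67% and 90% for ST heart with rapamycin (15614 genes), and 74% and 95% for LT spleen with exenatide (16877 genes). Genes were drawn independently, with no outlying animal or batch shift. These shares therefore do not cover members that move together or with 1 animal.

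The members, the lists of other pathway genes and markers, and the tests were chosen with earlier results of these data known. Named members are, where at least 4 passed in a tissue, the passing member with the smallest adjusted p of each role group plus Mki67 and Top2a, and elsewhere every passing member. Mki67, Top2a, Mcm5 and Pcna describe tissue levels. Where at least 10 other pathway genes passed, the 3 with the smallest adjusted p are named. Members named outside this rule were chosen after their values were seen. Leave-one-out fits where fewer than 4 members passed, and the colon fit without 2 libraries, were added after seeing the data.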

Additional observations from a re-analysis of the deposited data

Results flagged for a closer look

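The module mean of 8 of 94 groups of 4 to 10 libraries had 1 library far from the rest by Dixon's criterion, which chance meets in about 1 in 20 groups. On the log2 scale, spleen held both of the widest gaps. Exenatide spleen B28 of LT was at 8.34 log2 CPM, with the next library at 6.13 and the lowest at 4.30, and young control spleen A56 was at 7.04, with the next at 5.63 and the lowest at 4.62. A56 ranked highest of its group in 5 of 11 tissues and lowest in 2 (adipose tissue and white blood cells), and B28 highest in 3 of 12 and lowest in 2 (colon and hypothalamus). In LT hypothalamus, aged control B27 was highest at 0.52 (next 0.37, lowest 0.25) and young control A54 lowest at 0.17 (next 0.50, highest 0.74). In LT colon, exenatide animal B36 was highest at 5.37 (next 5.16, lowest 4.99). In ST heart, exenatide animal E31 was highest at 2.31 (next 1.21, lowest 0.84) and rapamycin animal E28 highest at 1.35 (next 0.66, lowest 0.46). E31 ranked highest of its group in 5 of 7 tissues. In ST white blood cells, knockdown control E9 was lowest at 1.23 (next 2.09, highest 2.42).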

How the results depend on the processing

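No paired analysis was possible because each animal belongs to 1 condition. Of values for named members under alternatives, 827 kept their direction and call, 249 kept the direction and lost the call, 3 gained one and 0 reversed. Low counts left 4 to 16 members untested in the brain and muscle tables, 6 in YA heart and 1 in LT liver.

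Summed over tissues, the LT age calls went from 42 to 0 in batch 3 alone. White blood cells had no batch 3 libraries, so their calls among the 42 were not refitted there. The 4 LT exenatide calls became 1 with no low-count filter, 10 with DESeq2, 8 with only the compared groups, 1 in batch 3 alone and 0 in batches 1 and 2 alone. ST age went from 5 to 10 with DESeq2, ST exenatide from 3 to 1 with no filter, and ST rapamycin from 29 to 19 with no filter and 13 with only the compared groups. Exenatide within the knockdown went from 3 to 18 with DESeq2 and its difference by knockdown from 0 to 1.

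By tissue, higher members of LT adipose tissue with age went from 7 to 0 in batch 3 and 1 in batch 2 (3 to 12 with 1 animal left out), higher members of LT white blood cells ranged from 10 to 18 with 1 animal left out, and lower members of LT frontal cortex went from 8 to 0 in batch 3 (5 to 9 with 1 animal left out). Lower members of ST heart with rapamycin went from 17 to 11 with no filter and 8 with only the compared groups (8 to 25 with 1 animal left out). Members at an unadjusted p under 0.05 went from 12 to 7 in batch 2 for LT colon with exenatide (10 to 16 with 1 animal left out) and from 35 to 5 in batch 3 for LT spleen (1 to 36). They ranged from 5 to 29 for ST adipose tissue with rapamycin, from 5 to 33 for adipose tissue within the knockdown (15 with only the compared groups) and from 7 to 23 for white blood cells within the knockdown. With the members tested in every tissue alone, the module mean difference of LT frontal cortex with age went from -0.49 to -0.29, and that of ST hippocampus with rapamycin from 0.01 to -0.04, a reversed sign. Batch sets and left-out animals mean fewer samples; otherwise the cause was not tested.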

Other observations

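In white blood cells, Ube2c, Nusap1 and Esco2 followed the erythroid markers more than Mki67 or Ccnb1 did. These genes were chosen after their values were seen. Ube2c is the ubiquitin-conjugating enzyme of the anaphase-promoting complex, Nusap1 a spindle protein and Esco2 a cohesin acetyltransferase. The erythroid markers are 7 genes of red cells and their precursors, among them the beta-globins Hbb-bt and Hbb-bs. In the 16 YA blood libraries, the 6 with the highest erythroid marker sum, from 63028 CPM up to 213692 CPM, were also the 6 with the most Ube2c, Nusap1 and Esco2. The first of them, control A33, had 1000 CPM of Ube2c, 452 of Nusap1 and 107 of Esco2, against YA medians of 87.5, 60.7 and 7.78 CPM. The same library had 77.9 CPM of Mki67 and Ccnb1 at 0 CPM, against medians of 38.2 and 1.45 CPM.

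In the 28 ST blood libraries, young control A44 was highest in the erythroid sum (700945 CPM), Ube2c (1199 CPM), Nusap1 (833 CPM) and Esco2 (78.7 CPM), against medians of 53620, 71.9, 49.3 and 6 CPM. Exenatide plus knockdown animal E15 was at the other end, with the lowest erythroid sum of the cohort (9921 CPM), the highest Mki67 (163 CPM), 20.9 CPM of Ube2c and 23 CPM of Nusap1, but 5.1 CPM of Esco2, near the median. The order was looser in ST and LT than in YA. In LT, the highest erythroid sum was 61778 CPM (young control A52), where Ube2c was at 38.9 CPM. A blood library's Ube2c, Nusap1 and Esco2 levels and its erythroid marker sum are thus worth reading side by side before its module mean is used. What part red cell precursors have in these values was not tested.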
